A study of Homo sapiens with 6 samples.

Results

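The 28 genes described here carry the synthesis of cholesterol, its control by the SREBP transcription factors, and its movement and storage in the cell. They were taken by gene symbol from a table of read counts for 78932 gene identifiers, and all 28 were found and had enough reads to be tested among the 18040 genes kept. The libraries were made from poly(A)-selected RNA of HCC1937, an established human breast cancer cell line, which the labels describe by that name only, with no transgene or other genetic change. There were 3 control libraries, whose vehicle the labels do not name, and 3 libraries from cells kept in 8 nM docetaxel, both collected at 24 h. Docetaxel is a taxane, a drug that binds tubulin and stabilises microtubules. All 6 libraries share 1 cell line, and the labels call the replicates biological without saying whether they were separate cultures. The p-values therefore measure the spread between these libraries, which may be technical.

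Cholesterol is built from acetyl-CoA. The first steps make mevalonate and then the isoprenoid diphosphates, from which squalene is joined, closed into lanosterol and trimmed to cholesterol in the endoplasmic reticulum. The transcription factor SREBP-2, made from SREBF2, switches most of these genes on together when sterols in that membrane are low. Its precursor is held there by SCAP and the INSIG proteins, and is carried to the Golgi and cut free when sterols fall. SREBP sites in promoters commonly act beside sites for NF-Y and SP1. The genes of this pathway are often read as a single programme, because a change in sterol supply tends to move them in the same direction.

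With docetaxel, 7 of the 28 genes rose (MVK, MVD, FDPS, FDFT1, LSS, EBP and DHCR7), 5 fell (MSMO1, SC5D, INSIG1, STARD4 and SOAT1) and 16 did not pass the test. In a fit with offsets for transcript GC content and length, described below, 4 were called higher and 0 lower, and with a replicate block added 2 and 0, so none of the 5 falls was called there. A gene was called at an adjusted p under 0.05 in edgeR's quasi-likelihood test, adjusted over all 18040 genes. The genes that rose made 25.0% of the 28, beside 9.14% of all genes tested, and those that fell made 17.9%, beside 7.82%. The count of falling genes was 3 without control replicate 2, control replicate 3 or docetaxel replicate 3, and 2 without docetaxel replicate 2, while that of rising genes was between 6 and 8 with any 1 library left out. Every called change was small. The largest rise was 0.28 on the log2 scale (MVD, 1.22-fold) and the largest fall was to 0.759 of the control level (STARD4). The median log2 fold change of the 28 genes was 0.01, and that of all genes tested was also 0.01.

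The 6 libraries held between 38622062 and 41675186 counts. Among all genes tested, 1649 were called higher and 1410 lower, and scaling by library size alone turned this split to 1096 and 1866. Of the epithelial markers, the keratin genes KRT8 (mean 1965 CPM over the 6 libraries, where CPM are counts per 1000000 counts), KRT18 (666 CPM) and KRT7 (476 CPM) were abundant. EPCAM and KRT5, which breast epithelial lines often express, had between 0 and 8 and between 0 and 4 reads per library, and CDH1 had between 15 and 40. KRT19 and KRT14 had at most 12 reads in any library. Whether these low values come from the cell line or from the counting was not tested. The summed level of the 8 epithelial markers was 2835 to 2931 CPM in the controls and 3290 to 3336 CPM with docetaxel, and its part in the results below was not tested. The 4 leukocyte markers summed to at most 0.155 CPM in any library, with at most 1 read of PTPRC. The 3 endothelial markers summed to 2.05 to 2.95 CPM in the controls and 2.77 to 3.50 CPM with docetaxel, and the 4 mesenchymal markers to 378 to 388 and 356 to 367 CPM, nearly all of it VIM. In a pool of cells, fewer cells that express a gene and less of its RNA in each cell cannot be told apart.

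The direction of change moved with the base composition of the transcripts. The 7 genes that rose had a GC content between 48.6% and 63.7% in their longest transcript, and the 5 that fell between 34.2% and 46.0%. The 16 genes without a call lay between 40.2% and 64.2%. Of the 14 genes with at least 50% GC, 6 rose and 0 fell, and of the 14 below 50%, 1 rose and 5 fell. Across the 28 genes the log2 fold change followed GC content with a Spearman's rho of 0.765 and a Pearson's r of 0.783, and across all 16421 tested genes with a GC value with 0.536 and 0.406. All these genes share the same 6 libraries, so these correlations describe the genes and are not tests.

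For this reason each gene was also fitted with offsets that remove, library by library, the loess curve of the counts on transcript GC content and length. With the offsets, edgeR called 4 of the 28 genes higher (14.3%, beside 2.93% of the 16421 genes tested) and 0 lower (beside 1.95%). The 4 were HMGCS1, FDPS, FDFT1 and EBP. At an unadjusted p under 0.05, 6 of the 28 were higher (beside 10.1% of the 16421 genes) and 5 lower (beside 7.39%) with the offsets. These 5 were MSMO1, SC5D, INSIG1, SREBF2 and SCAP, of which only the first 3 had been called lower without the offsets. STARD4 and SOAT1 were not among them. Spearman's rho between fold change and GC content was 0.16 over the 28 genes in this fit. What part of the change in each gene goes with base composition as such was not tested beyond these 2 fits.

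**Figure D1:**
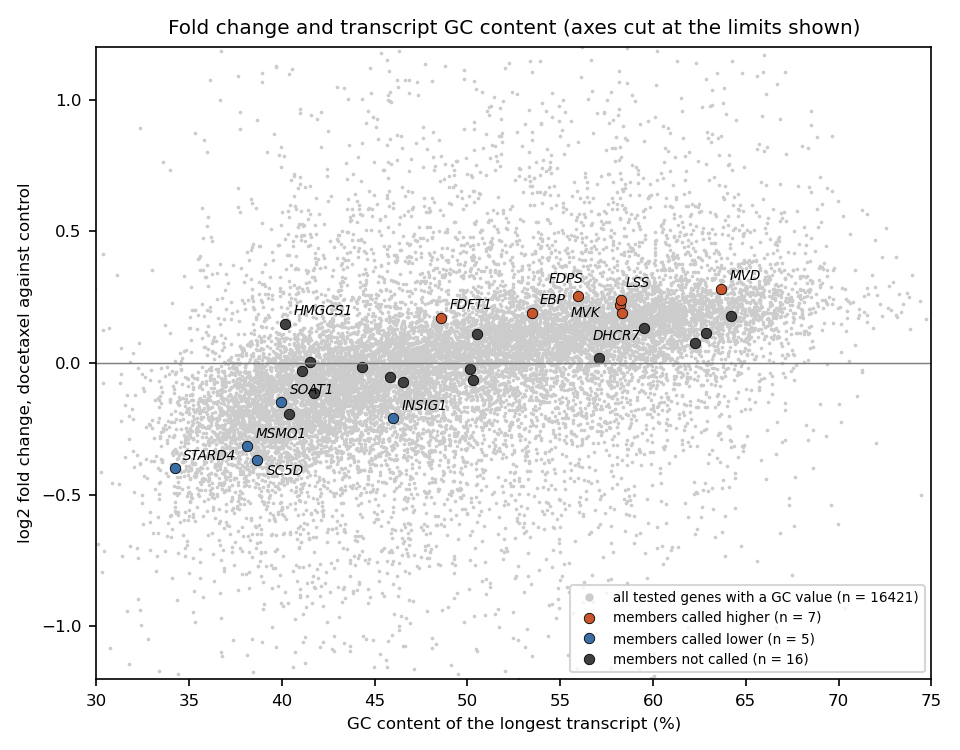
Log2 fold change with docetaxel against the GC content of each gene's longest transcript in percent, for all 16421 tested genes with a GC value (grey) and for the 28 cholesterol genes (coloured by call). The 7 genes called higher lie at or above 48.6% GC and the 5 called lower at or below 46.0%.

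Counted by whether the libraries of the 2 groups separate, genes of the set lay on both sides. In 9 of the 28 genes every docetaxel library was above every control library (32.1%, beside 17.0% of all genes tested), and in 6 every docetaxel library was below (21.4%, beside 15.0%). The 9 were the 7 called genes with NSDHL and SCAP, and the 6 were the 5 called genes with GGPS1.

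**Figure D2:**
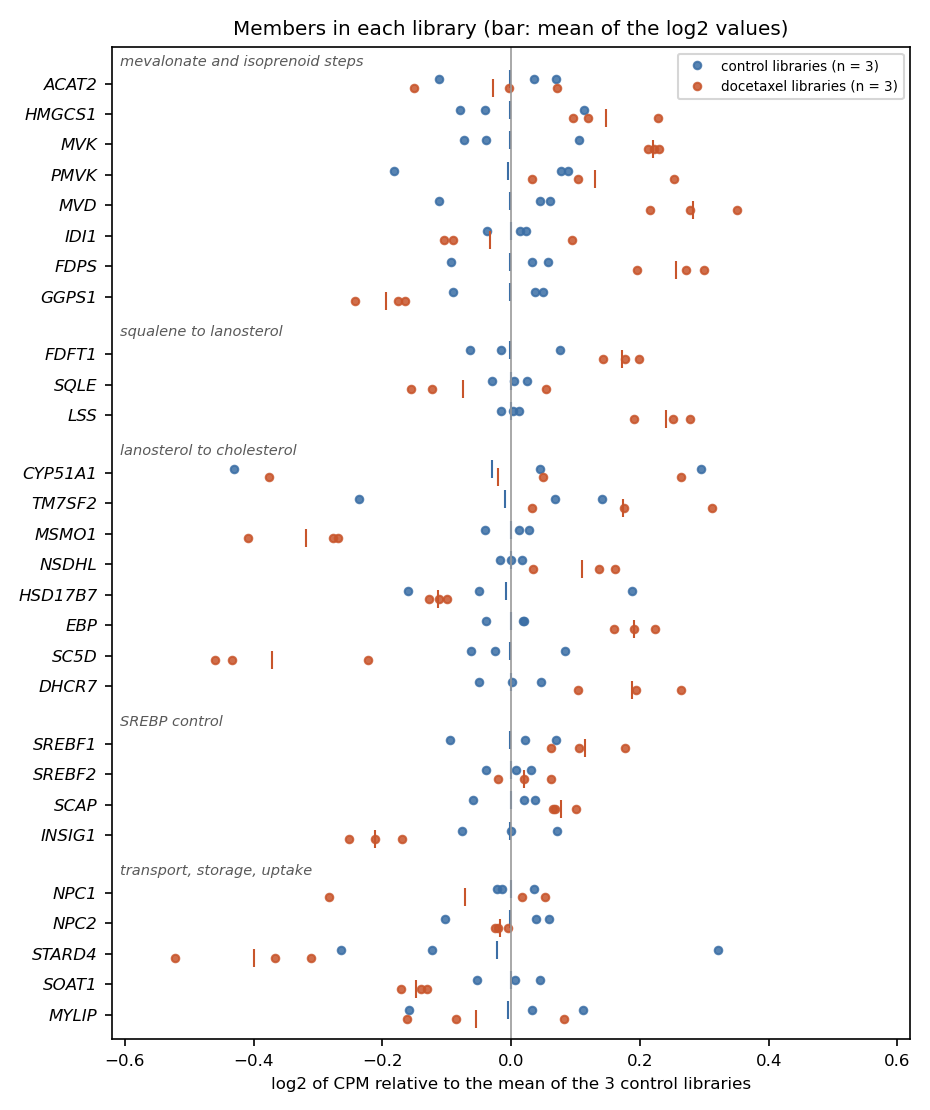
CPM of each of the 28 genes in every library, on a log2 scale relative to the mean of the 3 control libraries. MVD, FDPS and LSS sit to the right in all 3 docetaxel libraries and MSMO1, SC5D and INSIG1 to the left, while STARD4 shows 1 control library far above the other 2.

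In the early part of the pathway, from acetyl-CoA to the isoprenoid diphosphates, 3 of 8 genes rose and 0 fell. The 3 are MVK, MVD and FDPS. With the offsets 2 of the 8 were higher and 0 lower. Beside this count, and those of the other steps and roles below, stand 9.14% higher and 7.82% lower of all genes tested. With the offsets these shares were 2.93% and 1.95%. MVD (ENSG00000167508, on chromosome 16 from 88651935 to 88663161, minus strand, GRCh38 in GENCODE release 29) encodes the decarboxylase that makes isopentenyl diphosphate. Its level was 159, 143 and 161 CPM in the 3 control libraries and 187, 197 and 179 CPM with docetaxel. All docetaxel libraries stood above all controls. The mean rose from 154 ± 10.0 to 188 ± 8.80 CPM (SD, n = 3 in either group), by 0.28 on the log2 scale with a standard error (SE) of 0.05 (edgeR adjusted p = 0.000132). MVD has the highest GC content of the called genes, 63.7%, and with the offsets its log2 fold change was 0.09 (edgeR adjusted p = 0.217).

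FDPS (ENSG00000160752, on chromosome 1 from 155308748 to 155320666, plus strand) encodes farnesyl diphosphate synthase, the enzyme at the branch to sterols, prenyl groups and dolichol. It measured 128, 115 and 126 CPM in the controls and 141, 148 and 151 CPM with docetaxel, again with no overlap. FDPS rose by 0.26 on the log2 scale (SE 0.05, edgeR adjusted p = 0.000295), or 1.19-fold (95% confidence interval 1.12 to 1.28). With the offsets FDPS remained called at 0.15 (edgeR adjusted p = 0.0232), and with the offsets and a replicate block together it was not (edgeR adjusted p = 0.0511). FDPS has 8 named pseudogenes, whose reads came to 0.561% of its own, and 18.6% of its exonic bases overlap RUSC1-AS1 on the opposite strand. The strand setting of the counting is not given in the sources used here, so reads of that antisense gene could be in the FDPS count.

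MVK (ENSG00000110921, on chromosome 12 from 109573255 to 109598117, plus strand) encodes mevalonate kinase. It measured 46.6, 42.1 and 41.1 CPM in the controls and 50.5, 50.7 and 50.1 CPM with docetaxel. The docetaxel libraries lay closer together than the controls and all above them. MVK rose by 0.22 on the log2 scale (SE 0.06, edgeR adjusted p = 0.0118). This call was lost with the offsets (0.10, edgeR adjusted p = 0.411) and without control replicate 2 (edgeR adjusted p = 0.0572), control replicate 3 (0.0842) or docetaxel replicate 2 (0.0524).

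The other 5 genes of these steps did not pass the test. HMGCS1, which makes HMG-CoA and is a classical SREBP-2 target, ranged from 49.4 to 56.4 CPM in the controls and from 55.8 to 61.2 CPM with docetaxel, and the groups overlapped. The difference of 0.15 on the log2 scale (SE 0.06) was not called (edgeR adjusted p = 0.0944). HMGCS1 has a GC content of 40.2%, and with the offsets it was higher by 0.31 (SE 0.06, edgeR adjusted p = 0.00116), the largest value of the 28 genes in that fit. It was also called without control replicate 3 (0.21, edgeR adjusted p = 0.0401), and 15.0% of its exonic bases overlap a gene on the opposite strand.

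GGPS1, which makes the geranylgeranyl diphosphate used to prenylate proteins, ranged from 19.4 to 21.3 CPM in the controls and from 17.4 to 18.4 CPM with docetaxel. The groups did not overlap, but the log2 fold change of -0.19 (SE 0.09) did not pass (edgeR adjusted p = 0.130), and 37.3% of its exonic bases overlap TBCE on the same strand. PMVK, the kinase after MVK, had a log2 fold change of 0.13 (edgeR adjusted p = 0.267). IDI1, the isomerase of isopentenyl diphosphate, had -0.03 (95% confidence interval -0.14 to 0.08), and 14.8% of its exonic bases overlap IDI2-AS1 on the opposite strand. ACAT2, the cytosolic thiolase that joins the first acetyl units, had -0.02 with a wider interval of -0.28 to 0.23, and 52.3% of its exonic bases overlap genes on the opposite strand. Reads of genes that overlap on opposite strands cannot be told apart without strand. Strand does not separate the reads of GGPS1 and TBCE.

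In the middle steps, from farnesyl diphosphate to lanosterol, 2 of 3 genes rose and 0 fell, and with the offsets 1 was higher and 0 lower. LSS (ENSG00000160285, on chromosome 21 from 46188141 to 46228824, minus strand) encodes lanosterol synthase, which closes the sterol rings. Its controls were among the tightest of the set, at 108, 107 and 109 CPM, and its docetaxel libraries stood at 131, 129 and 123 CPM. LSS rose by 0.24 on the log2 scale (SE 0.05, edgeR adjusted p = 0.000387). With the offsets it was 0.11 and not called (edgeR adjusted p = 0.119), and the GC content of LSS is 58.3%.

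FDFT1 (ENSG00000079459), squalene synthase, commits farnesyl diphosphate to sterols. It measured 208, 195 and 189 CPM in the controls and 218, 223 and 227 CPM with docetaxel, with no overlap. FDFT1 rose by 0.17 on the log2 scale (SE 0.04, edgeR adjusted p = 0.00473), and it was the same size with the offsets (0.17, edgeR adjusted p = 0.00493). FDFT1 has the lowest GC content of the genes that rose, 48.6%, and its call was lost only without control replicate 3 (0.14, edgeR adjusted p = 0.0609) among the 16 alternatives run. SQLE, squalene epoxidase and a rate-limiting step of the pathway, ranged from 89.7 to 93.0 CPM in the controls and from 82.1 to 94.9 CPM with docetaxel. Its log2 fold change was -0.07 (edgeR adjusted p = 0.420), but without docetaxel replicate 1, its highest library, it was -0.16 and called lower (edgeR adjusted p = 0.0361).

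In the late steps, which trim lanosterol to cholesterol, 2 of 8 genes rose and 2 fell, and with the offsets 1 was higher and 0 lower. The rises were EBP and DHCR7. EBP (ENSG00000147155, on chromosome X from 48521158 to 48528716, plus strand) encodes the sterol isomerase that moves a ring double bond. It measured 107, 103 and 107 CPM in the controls and 118, 123 and 120 CPM with docetaxel, and the groups did not overlap. EBP rose by 0.19 on the log2 scale (SE 0.05, edgeR adjusted p = 0.00351). The value with the offsets was 0.13, barely called (edgeR adjusted p = 0.0497), and a replicate block added to them ended the call (edgeR adjusted p = 0.0921).

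DHCR7 (ENSG00000172893, on chromosome 11 from 71428193 to 71452868, minus strand) encodes the reductase that turns 7-dehydrocholesterol into cholesterol. It measured 134, 129 and 138 CPM in the controls and 144, 153 and 161 CPM with docetaxel. Its docetaxel libraries spread more widely than its controls but did not meet them. DHCR7 rose by 0.19 on the log2 scale (SE 0.05, edgeR adjusted p = 0.00426), and the call was lost with the offsets (0.06, edgeR adjusted p = 0.513) and without docetaxel replicate 3 (0.15, edgeR adjusted p = 0.0745).

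The falls were MSMO1 and SC5D. MSMO1 (ENSG00000052802, on chromosome 4 from 165327623 to 165343160, plus strand) encodes the oxidase that removes the C4 methyl groups. It measured 65.0, 65.6 and 62.6 CPM in the controls and 53.5, 48.5 and 53.2 CPM with docetaxel, a wide gap for genes of this set. The mean fell from 64.4 ± 1.59 to 51.7 ± 2.78 CPM (SD, n = 3 in either group), or to 0.803 of the control level. On the log2 scale MSMO1 fell by 0.32 (SE 0.06, edgeR adjusted p = 0.000261). MSMO1 has a GC content of 38.1%, and with the offsets its log2 fold change was -0.14 (edgeR adjusted p = 0.127).

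SC5D (ENSG00000109929, on chromosome 11 from 121292453 to 121308694, plus strand) encodes the desaturase just before DHCR7. It measured 28.9, 31.2 and 28.2 CPM in the controls and 25.2, 21.8 and 21.4 CPM with docetaxel. The groups did not overlap, and docetaxel replicate 1 was the nearest to the controls. SC5D fell by 0.37 on the log2 scale (SE 0.08, edgeR adjusted p = 0.00163), and with the offsets its value was -0.17 (edgeR adjusted p = 0.184). SC5D and DHCR7 catalyse adjoining steps, and here the RNA of one fell while that of the other rose, with GC contents of 38.6% and 58.3%.

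The other 4 late genes did not pass the test. NSDHL, the dehydrogenase that acts with MSMO1, had every docetaxel library above every control (means of 100.3 and 92.8 CPM), but its log2 fold change of 0.11 (SE 0.05) was not called (edgeR adjusted p = 0.122). HSD17B7, the ketoreductase of the same complex, had -0.11 (edgeR adjusted p = 0.432), and TM7SF2, a sterol reductase with 5.92 to 8.66 CPM, had 0.18 with an SE of 0.14 (edgeR adjusted p = 0.441). CYP51A1, the lanosterol demethylase, had only 46 to 75 reads per library, and its log2 fold change of 0.01 had a 95% confidence interval of -0.59 to 0.60, so a change of moderate size was not detectable at this depth. Its exons overlap those of AC000120.2 on the same strand over 79.4% of their bases, how the counting assigned such reads is not given, and its level may not be that of the gene. Reads in named pseudogenes came to 14.6% of those in CYP51A1 and 2.52% of those in HSD17B7.

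Among the genes that control SREBP, 1 of 4 fell and 0 rose, and with the offsets 0 were higher and 0 lower. SREBF2 (ENSG00000198911), the gene of SREBP-2 itself, measured 262, 257 and 249 CPM in the controls and 259, 252 and 267 CPM with docetaxel. The groups overlapped throughout, and the log2 fold change was 0.02 with a 95% confidence interval of -0.06 to 0.10 (edgeR adjusted p = 0.806). SREBF1 (ENSG00000072310), which codes for the SREBP-1 proteins that favour fatty acid genes, measured 303, 270 and 293 CPM in the controls and 326, 311 and 302 CPM with docetaxel. The difference of 0.12 on the log2 scale (SE 0.04) was not called (edgeR adjusted p = 0.0675), but it was called higher with upper-quartile scaling (edgeR adjusted p = 0.0432) and without control replicate 1 (edgeR adjusted p = 0.0448). SCAP (ENSG00000114650), the sterol sensor that escorts SREBP, measured 171, 161 and 173 CPM in the controls and 176, 180 and 176 CPM with docetaxel. These did not overlap, yet the difference of 0.08 on the log2 scale (SE 0.04) was not called (edgeR adjusted p = 0.237). The 3 genes have GC contents of 57.1% to 62.8%, and with the offsets all 3 fold changes turned to the other side of 0, at -0.06 for SREBF1, -0.09 for SREBF2 and -0.10 for SCAP, with none called.

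INSIG1 (ENSG00000186480, on chromosome 7 from 155297776 to 155310235, plus strand) encodes the anchor that holds the SCAP and SREBP complex in the endoplasmic reticulum, and is itself a well known SREBP target. It measured 51.0, 53.8 and 56.5 CPM in the controls and 46.5, 45.2 and 47.8 CPM with docetaxel. All docetaxel libraries lay below all controls. INSIG1 fell by 0.21 on the log2 scale (SE 0.06, edgeR adjusted p = 0.0133), to 0.864 of the control level (95% confidence interval 0.794 to 0.941). With the offsets the value was -0.17 (edgeR adjusted p = 0.0687), and the call was also lost without control replicate 3 (-0.17, edgeR adjusted p = 0.104) and without docetaxel replicate 2 (-0.20, edgeR adjusted p = 0.0509).

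**Figure D3:**
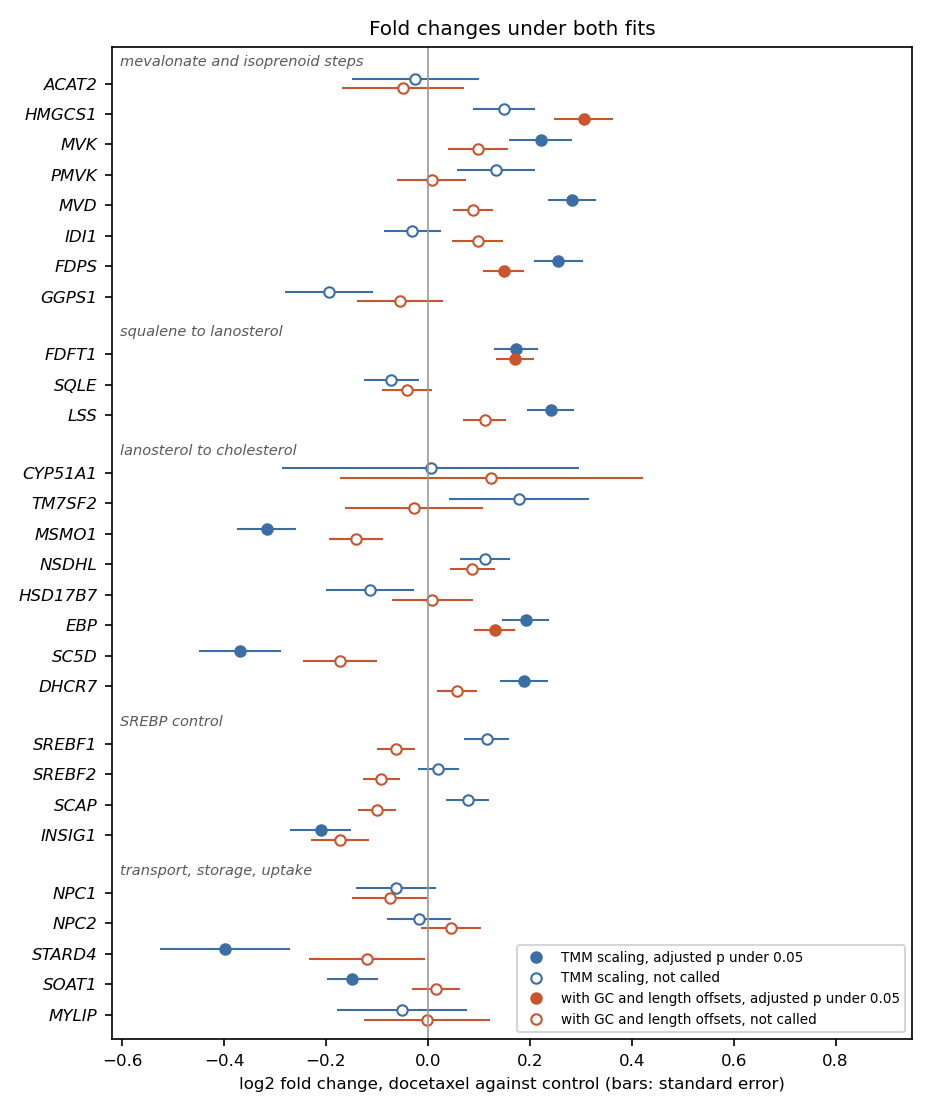
Log2 fold change of each of the 28 genes with docetaxel (points) and its standard error (bars), from the fit with TMM scaling (blue) and from the fit with GC and length offsets (orange); filled points passed an adjusted p of 0.05. FDPS, FDFT1 and EBP are filled in both fits, HMGCS1 only with the offsets, and none of the 5 genes on the lower side is filled with the offsets.

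The promoters of these genes were searched for the sites that SREBP, NF-Y and SP1 bind, to set the letters beside the calls, which without the offsets went in both directions. RefSeq windows on GRCh38.p14, from 250 bases before to 50 after each start, were found for 25 of the 28 genes (33 windows), and not for ACAT2, FDFT1 or SQLE. Exact matches on both strands were counted for TCACNCCAC, a core SREBP site, for CCAAT, the NF-Y box, and for GGGCGG, an SP1 box. None of these motifs contains another. The stretches below are taken from the parts of 6 windows outside the gene's own GENCODE release 29 exons, in the direction of the gene. They show SREBF2, the single gene with a core SREBP match, then MVD and FDPS, which rose, HMGCS1, called higher with the offsets, and MSMO1 and INSIG1, which fell. The stretches of SREBF2 and MSMO1 are cut to the 200 bases nearest the exon. Capitals mark the SREBP core and the NF-Y box, the latter written as ATTGG where it lies on the opposite strand. They lie at chr22:41832879-41833078 (plus), chr16:88663162-88663341 (minus), chr1:155308616-155308747 (plus), chr5:43313513-43313662 (minus), chr4:165327423-165327622 (plus) and chr7:155297628-155297775 (plus), in the order given.
SREBF2: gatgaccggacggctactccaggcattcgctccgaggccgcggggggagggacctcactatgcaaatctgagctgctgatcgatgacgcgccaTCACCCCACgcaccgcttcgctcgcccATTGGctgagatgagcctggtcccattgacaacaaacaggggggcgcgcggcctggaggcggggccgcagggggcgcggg
MVD: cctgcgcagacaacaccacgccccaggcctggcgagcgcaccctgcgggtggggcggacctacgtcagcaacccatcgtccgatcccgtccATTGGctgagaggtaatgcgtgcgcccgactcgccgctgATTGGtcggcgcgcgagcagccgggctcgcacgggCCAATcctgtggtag
FDPS: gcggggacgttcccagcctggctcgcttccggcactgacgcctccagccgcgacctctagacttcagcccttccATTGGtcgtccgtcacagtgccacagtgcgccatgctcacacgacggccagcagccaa
HMGCS1: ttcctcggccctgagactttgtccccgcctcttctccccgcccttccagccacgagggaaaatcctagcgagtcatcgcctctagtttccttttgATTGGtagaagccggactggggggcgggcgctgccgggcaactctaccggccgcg
MSMO1: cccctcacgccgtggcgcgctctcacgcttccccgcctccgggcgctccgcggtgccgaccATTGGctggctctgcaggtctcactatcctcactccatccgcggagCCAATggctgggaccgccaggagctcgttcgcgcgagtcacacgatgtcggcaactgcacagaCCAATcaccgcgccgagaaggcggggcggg
INSIG1: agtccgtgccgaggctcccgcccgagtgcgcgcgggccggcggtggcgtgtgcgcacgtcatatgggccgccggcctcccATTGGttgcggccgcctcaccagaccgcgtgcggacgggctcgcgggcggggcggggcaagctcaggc

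The NF-Y box was common in this set whatever the direction of change. It occurred in 20 of the 25 genes and in 66.7% of their windows, beside 34.6% of all 35116 promoter windows. It was present in 6 of 6 genes that rose and had a window, in 5 of 5 that fell, and in 9 of 14 without a call. The stretch printed for MVD holds 3 boxes and that for MSMO1 also 3, although the RNA of MVD rose and that of MSMO1 fell. The SP1 box occurred in 24 of the 25 genes and in 90.9% of windows, beside 15786 of all 35116 windows. The exact SREBP core occurred in 1 of the 25 genes, SREBF2, with its first base at -133 from the start site, or in 3.03% of their windows, beside 1.13% of all windows. A match describes letters in the window, and the absence of one says only that these letters are not there. Windows of the same gene can overlap, so a box can be counted in both, as in SC5D. The 35116 windows were not limited to those of the genes tested here.

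Among the genes of cholesterol movement, storage and receptor turnover, 2 of 5 fell and 0 rose, and with the offsets 0 were higher and 0 lower. STARD4 (ENSG00000164211, on chromosome 5 from 111496033 to 111512590, minus strand) encodes a carrier that moves sterol between membranes in the cytosol. It measured 11.9, 16.2 and 10.8 CPM in the controls and 10.5, 10.1 and 9.04 CPM with docetaxel. The groups did not overlap, but control replicate 2 was far above the other 2 controls. STARD4 fell by 0.40 on the log2 scale (SE 0.13, edgeR adjusted p = 0.0288), and without control replicate 2 the value was -0.20 and not called (edgeR adjusted p = 0.370). STARD4 has the lowest GC content of the 28 genes, 34.2%. Its call was also lost with the offsets (-0.12, edgeR adjusted p = 0.683), without docetaxel replicate 2 (-0.42, edgeR adjusted p = 0.0612) or docetaxel replicate 3 (-0.34, edgeR adjusted p = 0.162), and with limma-voom (limma adjusted p = 0.0554).

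SOAT1 (ENSG00000057252, on chromosome 1 from 179293714 to 179358680, plus strand) encodes the acyltransferase that esterifies cholesterol for storage in droplets. It measured 80.7, 86.4 and 84.1 CPM in the controls and 74.4, 76.0 and 76.5 CPM with docetaxel. The groups did not overlap, and SOAT1 fell by 0.15 on the log2 scale (SE 0.05, edgeR adjusted p = 0.0406), the largest adjusted p of the 12 called genes. The call was lost with upper-quartile scaling (edgeR adjusted p = 0.0661), with no filter on low counts (0.0967), with a replicate block (0.0786), and without control replicate 2 (0.152), control replicate 3 (0.119), docetaxel replicate 2 (0.0639) or docetaxel replicate 3 (0.0986). With the offsets the value was 0.02, on the other side of 0 (edgeR adjusted p = 0.915).

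NPC1 and NPC2, which together export cholesterol from lysosomes, had log2 fold changes of -0.06 (95% confidence interval -0.22 to 0.10) and -0.02 (-0.14 to 0.11). In NPC1, docetaxel replicate 1 stood alone at 26.5 CPM, and the other 5 libraries lay between 31.8 and 33.4 CPM. MYLIP, the ubiquitin ligase that removes lipoprotein receptors and an LXR target, had -0.05 (-0.31 to 0.21) at 7.62 to 9.21 CPM. None of these 3 was called (edgeR, adjusted p 0.674, 0.906 and 0.854).

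Per kilobase of gene length, the levels of the 28 genes spanned a wide range in the control libraries. EBP stood highest at 59.7 ± 1.38 CPM per kilobase (SD, n = 3), followed by NSDHL at 46.5, FDFT1 at 38.9 and SREBF1 at 35.1. PMVK (33.7), FDPS (33.1), MVD (32.7) and SREBF2 (31.8) lay so close that their control libraries overlapped. The lowest were CYP51A1 at 0.372, MYLIP at 1.38, TM7SF2 at 2.04, STARD4 at 2.29 and SC5D at 2.93 CPM per kilobase. This order rests on the deposited gene lengths, which for some genes differ from the exonic bases of GENCODE release 29. EBP has 1768 deposited and 2409 exonic bases, and NSDHL has 1996 in both, so which stands highest depends on the length used. The deposited and exonic bases are also 6191 and 3033 for MYLIP, 10054 and 5566 for SC5D, and 2639 and 4299 for ACAT2. Of the 12 called genes, the 7 that rose lay between 4.80 (MVK) and 59.7 (EBP) and the 5 that fell between 2.29 (STARD4) and 22.6 (MSMO1) in the controls. Summed over the 28 genes, with genes of high level weighing most, the libraries held 2362, 2264 and 2321 CPM in the controls and 2468, 2462 and 2457 CPM with docetaxel. These sums are of TMM-scaled CPM without the GC and length offsets. No sum was made with the offsets, so how far the difference goes with base composition was not tested.

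**Figure D4:**
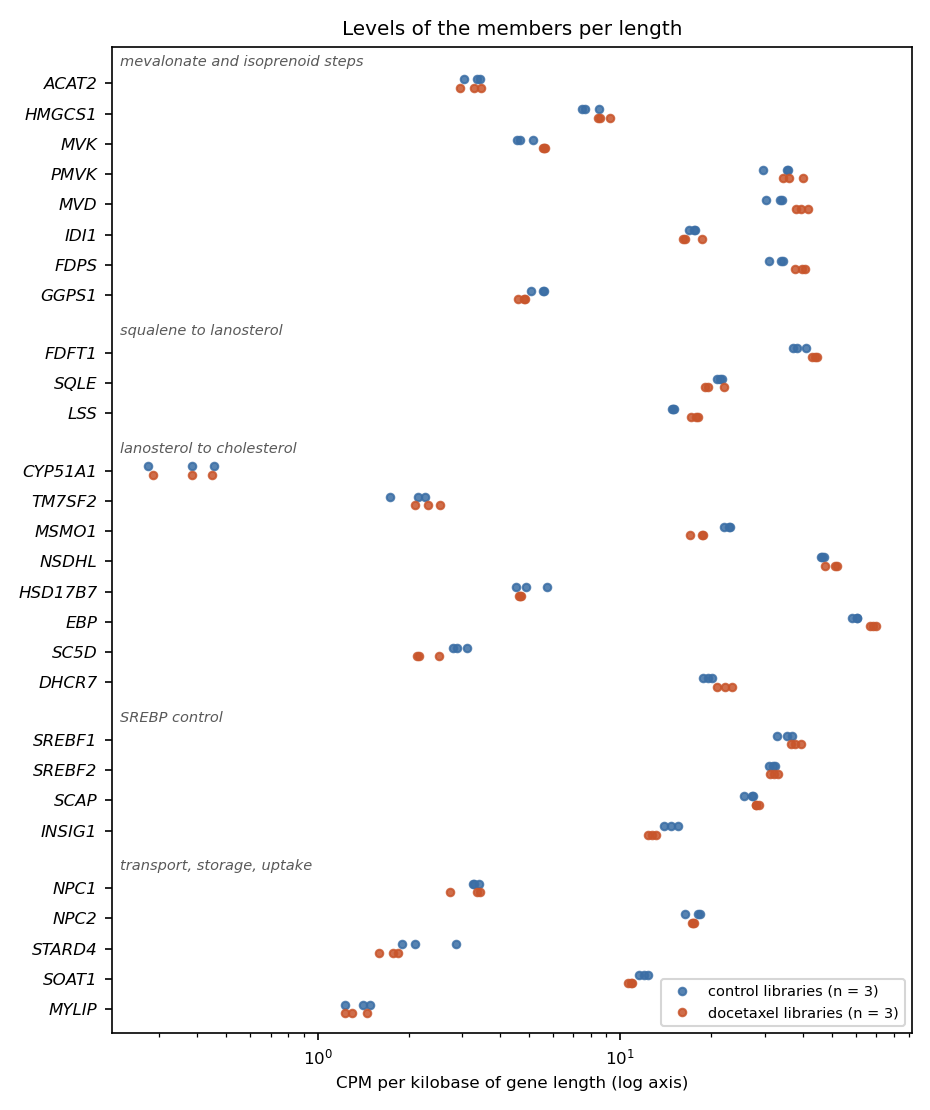
CPM per kilobase of gene length (log axis) for the 28 genes in each of the 6 libraries. EBP and NSDHL are the most abundant per deposited gene length and CYP51A1 the least. The 2 groups lie close together for every gene relative to the range between genes.

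Genes around this core were grouped in 6 lists with 56 members, of which 54 had enough reads to test. Of the 54, 7 rose and 9 fell, beside 9.14% and 7.82% of all genes tested, and with the offsets 4 were higher and 2 lower, beside 2.93% and 1.95%. The counts of the single lists below, of 5 to 15 genes each, have the same shares of all genes beside them. Their median log2 fold change was -0.01. Each tested gene named in these lists was refitted under the same 16 alternatives.

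Of the 9 genes that process SREBP or degrade sterol enzymes, 3 fell and 0 rose. INSIG2, the other anchor of SCAP, went from 14.7 ± 1.86 to 10.6 ± 1.62 CPM (SD, n = 3 in either group), a fall of 0.47 on the log2 scale (edgeR adjusted p = 0.00445). MBTPS2, the protease that makes the final cut releasing SREBP, fell by 0.33 on the log2 scale (edgeR adjusted p = 0.00228). PAQR3, a Golgi tether of SCAP, fell by 0.43 (edgeR adjusted p = 0.0221), although its libraries overlapped between the groups. All 3 have a GC content between 34.9% and 35.9%, and with the offsets 0 of the 9 genes were called (edgeR adjusted p of 0.228 for INSIG2, 0.558 for MBTPS2 and 0.633 for PAQR3). INSIG2 also lost its call without control replicate 2 (-0.37, edgeR adjusted p = 0.0675) or docetaxel replicate 3 (-0.37, 0.0664). PAQR3 lost its call without control replicate 2 (-0.25, edgeR adjusted p = 0.262), control replicate 3 (-0.41, 0.0764) or docetaxel replicate 3 (-0.40, 0.117).

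Of the 15 genes of sterol transfer and storage, 2 rose and 2 fell. SCP2, the sterol carrier protein of peroxisomes, fell from 54.2 ± 3.37 to 41.0 ± 1.49 CPM (SD, n = 3 in either group). This fall of 0.40 on the log2 scale (edgeR adjusted p = 0.000051) was called in all 16 alternatives, with the offsets at -0.30 (edgeR adjusted p = 0.00122). OSBPL8, a lipid exchanger at contacts of the endoplasmic reticulum with the plasma membrane, fell by 0.41 on the log2 scale (edgeR adjusted p = 0.00226). Its call was lost with the offsets (-0.15, edgeR adjusted p = 0.287). OSBPL5, a relative of OSBPL8, rose by 0.21 (edgeR adjusted p = 0.0164), and GRAMD1A, which draws cholesterol from the plasma membrane, rose by 0.15 (edgeR adjusted p = 0.0178). OSBPL5 has a GC content of 63.6%, and with the offsets its value was 0.02 and not called (edgeR adjusted p = 0.931). It was called in 10 of the 16 alternatives, and not with library-size scaling (edgeR adjusted p = 0.0563) or without control replicate 2, docetaxel replicate 1 or docetaxel replicate 2 (edgeR, adjusted p 0.108, 0.0507 and 0.114). GRAMD1A was called in 9 of the 16, and not without control replicate 1, control replicate 3, docetaxel replicate 1 or docetaxel replicate 3 (edgeR, adjusted p 0.051, 0.0775, 0.070 and 0.169), and its sign turned with the offsets (-0.04). GRAMD1B, a relative of GRAMD1A, had 0.15 and was not called (edgeR adjusted p = 0.0507), and was called higher in 6 of the 16 alternatives. These were the offsets (0.20, edgeR adjusted p = 0.0211), the offsets with a replicate block (0.0484), upper-quartile scaling (0.0329), DESeq2 (0.047), at least 1 CPM in 3 libraries (0.0416) and leaving out docetaxel replicate 1 (0.0398).

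Of 6 testable genes of lipoprotein uptake, 2 rose and 1 fell. SCARB1, the receptor for high-density lipoprotein, rose from 213 ± 8.58 to 242 ± 6.82 CPM (SD, n = 3 in either group), by 0.19 on the log2 scale (edgeR adjusted p = 0.00228). It was called in all 16 alternatives, with the offsets at 0.16 (edgeR adjusted p = 0.00486). LRP8, a receptor for apolipoprotein E, fell by 0.26 on the log2 scale (edgeR adjusted p = 0.00378), a call lost with the offsets (-0.17, edgeR adjusted p = 0.0898). LRPAP1, a chaperone of these receptors, rose by 0.14 (edgeR adjusted p = 0.0322), but was called in only 6 of the 16 alternatives. It was not called with the offsets (0.11, edgeR adjusted p = 0.120), library-size scaling (0.123), no filter on low counts (0.0864) or a replicate block (0.0685). Its call was lost without any 1 of control replicates 1 and 2 and docetaxel replicates 1, 2 and 3 (edgeR, adjusted p 0.0525, 0.155, 0.0637, 0.108 and 0.135). SORL1 had at most 6 reads in any library and was not tested.

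Of 5 testable genes of the LXR sterol sensors and their targets, 1 rose. That was NR1H2, which encodes LXR-beta (0.16, edgeR adjusted p = 0.0341), called in 7 of the 16 alternatives. It was not called with library-size scaling (edgeR adjusted p = 0.128), no filter on low counts (0.0624) or a replicate block (0.0572). Its call was also lost without control replicate 1, control replicate 2, docetaxel replicate 1 or docetaxel replicate 3 (edgeR, adjusted p 0.0961, 0.133, 0.118 and 0.229), and with the offsets its value was -0.01. ABCG1 had at most 4 reads per library and was not tested.

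Of 11 genes that use isoprenoids for prenyl groups, dolichol and ubiquinone, 2 fell and 0 rose. They were PGGT1B, a subunit of a geranylgeranyl transferase (-0.38, edgeR adjusted p = 0.00523), and NUS1, a subunit of the dolichol-making transferase (-0.33, edgeR adjusted p = 0.00278). With the offsets neither was called (edgeR, adjusted p 0.646 and 0.178), and PGGT1B also lost its call without control replicate 2 (0.0576) or docetaxel replicate 3 (0.0573). RABGGTB, a subunit of the Rab prenyl transferase, had -0.01 without the offsets and 0.20 with them (edgeR adjusted p = 0.00311).

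Of 8 fatty acid genes under SREBP-1, 2 rose and 1 fell. SCD, the stearoyl-CoA desaturase, fell from 929 ± 20.4 to 845 ± 4.15 CPM (SD, n = 3 in either group), by 0.14 on the log2 scale (edgeR adjusted p = 0.00701). It stayed called with the offsets (-0.11, edgeR adjusted p = 0.0263), and not with the offsets and a replicate block together (edgeR adjusted p = 0.0811). FASN, fatty acid synthase, rose from 1313 ± 45.6 to 1429 ± 26.5 CPM, by 0.12 (edgeR adjusted p = 0.0164), and with the offsets its value was -0.08 (edgeR adjusted p = 0.136). Without control replicate 1, control replicate 2, docetaxel replicate 1 or docetaxel replicate 3 FASN was not called (edgeR, adjusted p 0.0508, 0.0982, 0.053 and 0.119). ACSS2, which makes acetyl-CoA from acetate, rose by 0.25 (edgeR adjusted p = 0.0177), a call lost with the offsets (0.15, edgeR adjusted p = 0.232) and without control replicate 1 (0.121) or docetaxel replicate 3 (0.128). ACACA, acetyl-CoA carboxylase, was called higher only with the offsets (0.18, edgeR adjusted p = 0.0236) among the 16 alternatives.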

How the data were processed

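Per the labels, RNA was poly(A)-enriched and sequenced as read pairs of 150 bases on a NovaSeq. The authors deposited raw counts per gene, whole numbers for 78932 Ensembl identifiers, made with featureCounts 2.0.1 on GRCh38 per the submitters' processing notes, which also name MultiQC 1.11. How reads were aligned, by which annotation release and strand setting they were counted, and how overlapping or multi-mapping reads were treated is not given in the labels or those notes. The deposited gene length, another column of that table, served for levels per kilobase.

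Columns were matched to samples by library name. Counts were fitted with edgeR 4.0.16 in R 4.3.3 (filterByExpr, TMM, robust glmQLFit, glmQLFTest, two-sided), with Benjamini-Hochberg adjustment over the 18040 genes kept, which held 99.88% of counts. CPM are TMM-scaled, except the means and sums of cell type markers, which use total counts. A count of 0 allows up to 0.0777 CPM (3 counts) in the shallowest library, and covers counting error only. Confidence intervals (95%) and standard errors come from the test. GC content is that of the longest GENCODE release 29 transcript, and the offsets are loess fits (span 0.5) of each library's log2 CPM deviation on GC content and on log2 gene length, for the 91.03% of tested genes with a GC value. The fits were tested on simulated counts.

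The 28 genes, the 6 related lists, the marker lists, the motifs and the alternatives were chosen with earlier results of these data known. Library values are given for every called gene and the 4 SREBP control genes, and of each related list the called genes are named, at most 4. GRAMD1B, RABGGTB, ACACA, SORL1 and ABCG1 were named after their values were seen. Alternatives were other scalings (upper-quartile, RLE, library size), limma-voom (limma 3.58.1), DESeq2 1.42.0, no filter on low counts, at least 1 CPM in 3 libraries, the replicate block, the offsets, both together, and leaving out each library.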

Additional observations from a re-analysis of the deposited data

How the results depend on the processing

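Over 16 alternative settings, the 28 genes gave 447 fold changes, of which 375 had the same direction and call, 36 kept their direction and lost the call, 6 gained one and 30 changed sign, 2 of which, for SOAT1, also lost the call. Calls of the 28 genes lost or gained under one change of setting stand beside each gene. The replicate block, for numbers that the labels do not tie to a shared culture, left 7 genes higher and 4 lower, with SOAT1 lost. Same-numbered libraries of the 2 groups did not deviate together (correlations of -0.0376, -0.0505 and 0.0249, with over 0.1 needed). These values show no pairing, but with 3 libraries a group they cannot exclude a shared culture or day. The block moved the calls over all genes from 1649 higher and 1410 lower to 1283 and 1106.

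With GC and length offsets 4 genes were higher and 0 lower, and with the replicate block and the offsets together 2 (HMGCS1 and FDFT1) and 0; all genes gave 481 and 321, then 316 and 204. Log2 fold changes that changed sign were, with the offsets and then with both, IDI1 at 0.0975 and 0.0967, TM7SF2 at -0.0271 and -0.0232, HSD17B7 at 0.0085 and 0.013, SREBF1 at -0.0622 and -0.0629, SREBF2 at -0.0916 and -0.0915, SCAP at -0.100 and -0.100, NPC2 at 0.0448 and 0.0459, and SOAT1 at 0.0165 and 0.0162. CYP51A1 was -0.00443 with RLE scaling and -0.0334 with library-size scaling, which also gave SREBF2 -0.0176 and the median of the 28 genes -0.0255. Over all genes, the calls were 990 higher and 740 lower without control replicate 2, 1353 and 1841 without docetaxel replicate 1, where the split turned to more genes lower, 1089 and 968 without docetaxel replicate 2, and 1056 and 768 without docetaxel replicate 3. For the 28 genes, leaving out 1 library at a time gave 2 to 6 genes lower and a median of 0.00356 to 0.0618, and fold changes of -0.077 to 0.0251 for ACAT2, -0.118 to 0.00562 for IDI1, -0.171 to 0.176 for CYP51A1, -0.124 to 0.015 for NPC1, -0.065 to 0.0121 for NPC2 and -0.143 to 0.00703 for MYLIP. Of the related genes, the sign changed with the offsets and then with both for GRAMD1A (-0.0358 and -0.0363), NR1H2 (-0.00866 and -0.00982), FASN (-0.0789 and -0.079) and RABGGTB (0.198 and 0.197), and RABGGTB ranged from -0.053 to 0.0112 with 1 library left out. Library-size scaling ended the calls of OSBPL5, GRAMD1A, ACSS2, NR1H2, LRPAP1 and FASN. The cause was not tested. With 3 libraries a group, and at most 371 reads per library in ACAT2, MYLIP, TM7SF2 and CYP51A1, small changes of those genes were not detectable at this depth.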
